A study of Mus musculus with 4 samples.

Results

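*Tnfsf10*, which encodes the ligand TRAIL, and 8 other genes of the tumour necrosis factor (TNF) superfamily were followed in brain endothelial cells (ECs) with and without *Foxq1*. Genes were taken by symbol from the deposited table, which lists 12693 genes. It listed 8 of the 9 symbols, namely *Tnfsf10* and the 7 receptor genes *Tnfrsf10b*, *Fas*, *Tnfrsf1a*, *Tnfrsf21*, *Tnfrsf1b*, *Tnfrsf12a* and *Ltbr*. *Tnfsf12*, the gene of the ligand TWEAK, was not among the listed symbols and has no value here. The members were chosen by symbol with their normalized counts and differences between the genotypes in these same samples already known, so these differences are given as a description, without a test.

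Both groups were C57BL/6 mouse embryos at E18, the eighteenth embryonic day. The wild-type group (n = 2) was compared with the *Foxq1* cKO group (n = 2), of genotype FOXQ1fl/fl;Tie2-Cre. By the study's methods the controls were littermates without the Cre transgene, and cells were taken from the cerebral cortex by fluorescence-activated sorting for CD31, an EC surface protein. The Tie2 promoter drives Cre in vascular ECs and is also known to be active in blood cell lineages, and whether *Foxq1* was deleted in other cells of these embryos was not tested. The sources used here do not say how many embryos made up a sample, and the spread between samples may therefore be technical in part.

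TNF superfamily ligands are trimers on or shed from a cell surface, and they cluster receptors of neighbouring cells. Receptors with a cytoplasmic death domain, here the products of *Tnfrsf10b*, *Fas*, *Tnfrsf1a* and *Tnfrsf21*, can recruit adaptors such as FADD or TRADD. Apart from that of *Tnfrsf21*, they are known to activate caspase-8. Receptors without this domain bind TRAF proteins and act through NF-κB, which is not confined to them. In mice the product of *Tnfrsf10b* is the only TRAIL receptor with a death domain. In brain vessels, TNF receptors are known for the induction of leukocyte adhesion molecules, and the product of *Tnfrsf21*, death receptor 6, for a part in vessel growth and barrier formation.

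The sequence before the start of *Tnfsf10* is shown because this gene had the largest difference of the set, and that of *Tnfrsf12a* because it was the other gene whose groups did not overlap. Both windows are the 250 bases before the RefSeq start in GRCm38.p6, on the strand of the gene and written 5′ to 3′. The *Tnfsf10* window is chr3:27316827-27317076 (plus strand) and the *Tnfrsf12a* window is chr17:23677450-23677699 (minus strand). The GENCODE gene models, whose positions are given further on, begin earlier than the RefSeq starts, so 49 bases of the *Tnfsf10* window and 19 of the *Tnfrsf12a* window lie inside the gene as GENCODE places it. Capitals mark GTTTC or its reverse complement GAAAC, the letters that the study named as preferred by FOXQ1.
Tnfsf10: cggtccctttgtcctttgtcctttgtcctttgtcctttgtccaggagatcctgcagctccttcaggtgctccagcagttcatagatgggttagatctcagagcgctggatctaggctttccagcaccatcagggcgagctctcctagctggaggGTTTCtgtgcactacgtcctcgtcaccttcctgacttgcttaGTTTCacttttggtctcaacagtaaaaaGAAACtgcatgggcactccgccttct
Tnfrsf12a: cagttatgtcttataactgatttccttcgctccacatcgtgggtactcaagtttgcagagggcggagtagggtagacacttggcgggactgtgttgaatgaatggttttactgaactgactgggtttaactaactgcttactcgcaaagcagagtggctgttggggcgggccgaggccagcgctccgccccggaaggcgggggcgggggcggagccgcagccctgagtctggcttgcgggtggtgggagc

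The *Tnfsf10* window held 3 such matches, which began 96 and 54 bases before the start on the strand of the gene and 26 bases before it as GAAAC, the last of these inside the GENCODE gene. At least 3 matches were found in 2.05% of the 32851 RefSeq windows of this length, and at least 1 in 39.7%. The *Tnfrsf12a* window held none. Of the 7 members with a window in the table, 4 held at least 1 match, and besides *Tnfsf10* these were *Tnfrsf1b*, *Tnfrsf21* and *Fas* with 1 each. The *Tnfrsf1a* window, which held none, lies wholly inside the gene as GENCODE places it. Further motifs searched on both strands were TGTTTAC, a forkhead core found in 3.17% of all windows, an interferon-stimulated response element (TTTC, any 2 bases, TTTC) found in 2.98%, and an NF-κB site (GGGA, any base, TTTCC) found in 0.356%. Among the members, only the *Tnfrsf1b* window held one of these, an interferon element (TTTCGCTTTC, from 10 bases to 1 base before the start) that overlaps its GTTTC match. These are matches of letters and say nothing of binding.

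Between 15827166 and 21466436 reads fell on listed genes in each sample, and each listed gene had at least 1 read in every sample. How genes were left out of the deposited table is not stated in the sources used here, so an unlisted gene need not be unexpressed. *Foxq1*, the deleted gene, had 353 and 297 normalized counts in wild-type against 5.44 and 32.6 in *Foxq1* cKO samples, or 5.84% of the wild-type mean. Normalized counts are reads per gene divided by 1 size factor per sample. All 12 EC markers were listed, from 1393 for *Erg* to 137537 for *Cldn5* in the mean over samples. Their sum was lower in both *Foxq1* cKO samples (337665 and 382827) than in either wild-type sample (429155 and 393687). Of the 12, 11 had a negative and 1 a positive log2 difference. Without overlap between the groups, 8 were lower and 1 (*Cdh5*) was higher, where 36.0% of all genes had no overlap. Markers of other cells were present too. Of 10 pericyte and smooth muscle markers 7 were listed, with a sum between 131178 and 142504 led by *Rgs5*, and the contractile genes *Acta2*, *Tagln* and *Myh11* were not. All 12 microglia and macrophage markers were listed, and their sum was 7667 and 8569 in *Foxq1* cKO against 9853 and 12576 in wild-type samples. The single microglial genes did not all share this direction, since 7 of the 12 had a positive and 5 a negative log2 difference. The 5 negative ones had the highest means, from 850 for *P2ry12* to 2316 for *Csf1r*. Among the 7 positive ones the highest mean was 416 (*Mrc1*). Without overlap, *C1qc* (1.45) and *Trem2* (0.71) were higher, and the 3 genes *Csf1r*, *Cx3cr1* (-0.30) and *C1qb* (-0.40) were lower. All 10 radial glia and astrocyte markers were listed, with sums of 25677 and 25546 in *Foxq1* cKO against 32036 and 29905 in wild-type samples, and 7 of them had a negative and 3 a positive log2 difference. In the fit described below, the markers of these last lists that fell at an unadjusted p under 0.05 were *Csf1r* (log2 difference -0.83) and *Gfap* (-1.19), and among EC markers *Flt1* (-0.48). Neuronal (9 of 11) and erythroid (7 of 8) markers were listed as well, and the sums of their groups overlapped. Fewer cells of one type and less RNA per cell cannot be told apart in such samples, and the part of these cells in the values below was not tested.

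*Tnfsf10* was the member that differed most between the genotypes. The gene lies on chromosome 3 from 27317028 to 27342427 on the plus strand (GRCm38). Its normalized counts were 187 for wild-type 1, 110 for wild-type 2, 2055 for *Foxq1* cKO 1 and 1020 for *Foxq1* cKO 2, from 222, 110, 1888 and 1003 reads. Both *Foxq1* cKO samples were above both wild-type samples, with a wide gap between the groups. Mean normalized counts were 1538 ± 732 (SD, n = 2) for *Foxq1* cKO against 148 ± 54.7 (SD, n = 2) for wild-type cells, a ratio of 10.4. The log2 difference, taken from values to which 1 was added, was 3.33 with a standard error of 0.54. The *Foxq1* cKO samples differed from each other by a factor of 2.01 and the wild-type samples by 1.71. Omitting single samples gave log2 differences between 2.82 and 3.83. Of the 12472 genes compared, 81 had a log2 difference at least as high, *Tnfsf10* included. The EC, microglial and glial marker sums given above were lower in *Foxq1* cKO samples, and their part in this value was not tested.

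**Figure D1:**
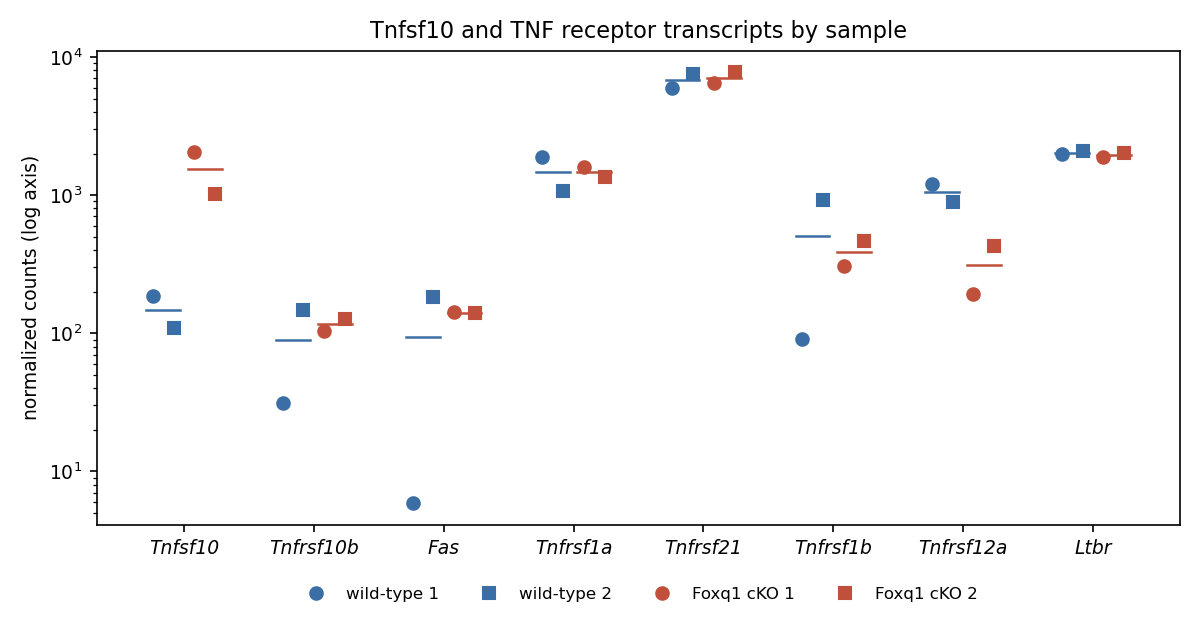
Normalized counts of *Tnfsf10* and 7 TNF receptor genes in each sample, on a log axis; circles are replicate 1, squares replicate 2, and short lines the group means (n = 2). Both *Foxq1* cKO points lie above the wild-type points for *Tnfsf10* and below them for *Tnfrsf12a*, and the groups overlap for the other 6 genes.

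*Tnfrsf10b*, the gene of the TRAIL death receptor DR5, was the least abundant member per length of exon. It lies on chromosome 14 (69767472 to 69784411, plus strand). Its values were 31.2 and 147 normalized counts in wild-type against 105 and 127 in *Foxq1* cKO samples. Wild-type 1 stood below the other 3 samples, and wild-type 2 was the highest, so the groups overlapped. The log2 difference was 0.76 (standard error 0.97), and without wild-type 1 it was -0.34. Other genes whose products bind TRAIL were described beside it. *Tnfrsf11b*, the gene of the secreted decoy osteoprotegerin, had 1502 and 2257 normalized counts in wild-type against 1757 and 2045 in *Foxq1* cKO samples, a log2 difference of 0.04 (standard error 0.28). *Tnfrsf22*, the gene of a mouse decoy receptor of TRAIL, had 553, 269, 373 and 722 in the same order of samples. The groups overlapped for both decoys.

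*Fas*, the receptor of FAS ligand, was the member with the widest spread within a group. It lies on chromosome 19 (34290666 to 34327772, plus strand), and *Gm27818* overlaps it on the same strand, which leaves the assignment of shared reads uncertain. Its values were 5.90 and 181 normalized counts in wild-type, from 7 and 182 reads, and 143 and 139 in *Foxq1* cKO samples, from 131 and 137 reads. The *Foxq1* cKO values lay between the 2 wild-type values. A log2 difference of 2.00 (standard error 1.56) was fitted, and without wild-type 1 it was -0.36. The count models edgeR and DESeq2 gave 0.59.

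*Tnfrsf1a*, which encodes TNF receptor 1, the main receptor of soluble TNF, lies on chromosome 6 (125349362 to 125362484, plus strand). Its values were 1872 and 1069 normalized counts in wild-type against 1588 and 1348 in *Foxq1* cKO samples. The *Foxq1* cKO pair lay inside the wild-type pair. A log2 difference of 0.05 (standard error 0.34) was fitted, its 4 leave-one-out values ran from -0.36 to 0.45, and its sign was negative in the count models.

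*Tnfrsf21*, the death receptor 6 gene, was the most abundant member. It lies on chromosome 17 (43016555 to 43089189, plus strand). The wild-type samples had 5984 and 7559 normalized counts and the *Foxq1* cKO samples 6449 and 7745. The second replicate was the higher one in each genotype, and the groups overlapped. Its log2 difference of 0.07 (standard error 0.18) changed sign without wild-type 1 (-0.10) and without *Foxq1* cKO 2 (-0.06). *Tnfrsf19*, the gene of TROY, another receptor known from brain vessel growth, had 11463 and 9716 normalized counts in wild-type against 9545 and 10652 in *Foxq1* cKO samples, a log2 difference of -0.07 (standard error 0.15).

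Among the receptors without a death domain, *Tnfrsf12a* differed between the genotypes and *Tnfrsf1b* and *Ltbr* overlapped. *Tnfrsf12a* encodes Fn14, the receptor of TWEAK, and lies on chromosome 17 (23675445 to 23677468, minus strand). It had 1213 and 896 normalized counts in wild-type against 192 and 431 in *Foxq1* cKO samples, so both *Foxq1* cKO samples were below both wild-type samples. The mean was 1054 ± 224 (SD, n = 2) against 311 ± 170 (SD, n = 2), 3.39-fold lower in *Foxq1* cKO cells. The log2 difference was -1.85 (standard error 0.51), with leave-one-out values between -2.44 and -1.27. The value without *Foxq1* cKO 1 was the one nearest to 0.

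*Tnfrsf1b*, the gene of TNF receptor 2, which prefers membrane-bound TNF, lies on chromosome 4 (145213463 to 145246870, minus strand). It had 90.2 and 914 normalized counts in wild-type against 308 and 467 in *Foxq1* cKO samples. The wild-type samples differed by a factor of 10.1 and enclosed both *Foxq1* cKO values. The log2 difference was 0.40 (standard error 1.07) although the *Foxq1* cKO mean was 77.2% of the wild-type mean, so the 2 scales gave opposite signs. Without wild-type 1 the log2 difference was -1.27, and without wild-type 2 it was 2.06.

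*Ltbr*, the lymphotoxin β receptor gene, lies on chromosome 6 (125306571 to 125313885, minus strand). It had the tightest values of the set, at 1986 and 2075 normalized counts in wild-type against 1884 and 2017 in *Foxq1* cKO samples. Its log2 difference was -0.06 (standard error 0.21).

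**Figure D2:**
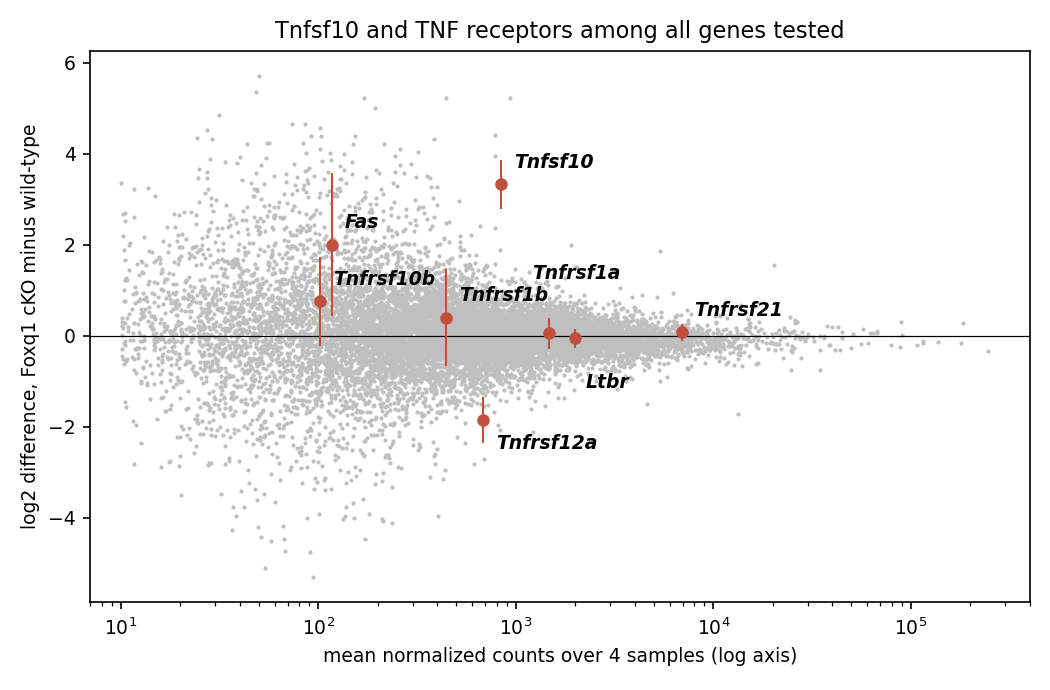
Log2 difference (*Foxq1* cKO minus wild-type) against mean normalized counts over the 4 samples (log axis) for 12472 genes in grey, with the 8 TNF superfamily genes in red and their standard errors as bars. *Tnfsf10* (3.33) lies above, and *Tnfrsf12a* (-1.85) below, most genes of similar abundance.

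In the set as a whole, 1 member was higher and 1 lower with no overlap between the genotypes, and 6 overlapped. Across all genes compared, 36.0% showed no overlap, 2239 with higher and 2249 with lower values in *Foxq1* cKO samples. At an unadjusted p under 0.05, limma, a test fitted across all genes, gave 2.17% of genes as higher and 3.05% as lower. Nothing is read from the counts of members, since the contrast was used to choose the set. All 8 listed members passed the minimum mean of 10 normalized counts. The median log2 difference was 0.23 for the 8 members and 0.01 for all genes compared. The median of the members depended on single samples and on the model, being -0.22 without wild-type 1, 1.05 without wild-type 2, 0.45 without *Foxq1* cKO 1, 0.13 without *Foxq1* cKO 2 and 0.03 with edgeR or DESeq2.

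The wild-type samples were far apart for several receptors. *Fas*, *Tnfrsf1b* and *Tnfrsf10b* each had a value in wild-type 1 at least 3-fold below all other samples. This held for 586 genes in wild-type 1 (4.70% of those compared), for 281 in wild-type 2, for 276 in *Foxq1* cKO 1 and for 167 in *Foxq1* cKO 2. A wild-type pair as far apart as that of *Fas* was seen in 1.63% of genes, as that of *Tnfrsf1b* in 4.35% and as that of *Tnfrsf10b* in 8.97%. For *Tnfsf10* the share was 36.5% and for *Tnfrsf12a* 56.1%, so the wild-type pairs of these genes were not unusually far apart. A *Foxq1* cKO pair as far apart as that of *Tnfsf10* was seen in 19.6% of genes, and as that of *Tnfrsf12a* in 15.7%.

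Levels were compared between genes per kb of annotated exon. The order of the means over the 4 samples was *Tnfrsf21*, *Ltbr*, *Tnfrsf1a*, *Tnfrsf12a*, *Tnfsf10*, *Tnfrsf1b*, *Fas* and *Tnfrsf10b*, from 1688 to 18.8 normalized counts per kb. The range of *Tnfrsf21* (1456 to 1885 per kb) did not overlap that of *Ltbr* (801 to 881), nor did that of *Ltbr* overlap that of *Tnfrsf1a* (412 to 723). Each later neighbour overlapped the one before it. Between the genotypes the order differed in the middle. *Tnfsf10*, with a mean of 28.2 normalized counts per kb, was in place 7 of 8 in wild-type cells, and with 292 it was in place 4 in *Foxq1* cKO cells. *Tnfrsf12a* was at 546 per kb in wild-type and 161 in *Foxq1* cKO cells, below *Tnfsf10* in the latter.

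**Figure D3:**
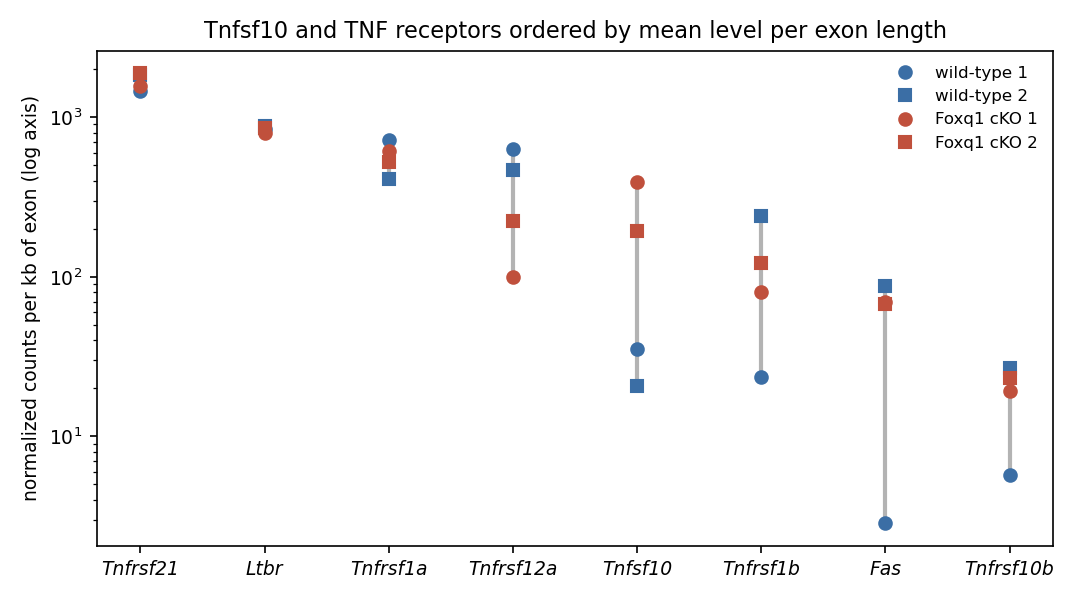
Normalized counts per kb of exon for the 8 genes in each sample (log axis), ordered by the mean over 4 samples, with grey lines from the lowest to the highest sample. *Tnfrsf21* and *Ltbr* stand apart from the genes after them, while *Tnfsf10* spans 20.8 to 390 per kb between its wild-type and *Foxq1* cKO samples.

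Genes that behaved most like *Tnfsf10* were sought by the root mean square distance between the values of the 4 samples, each gene centred on its own mean on the log2 scale. Among 11402 genes with a mean of at least 50, the nearest were *Gm37082* (distance 0.48), *Dcaf15* (0.50), which encodes a ubiquitin ligase adaptor, *Dll1* (0.50), the gene of a Notch ligand, *Tspyl4* (0.51) and the nuclear pore gene *Nup205* (0.51). *Dll1* had 64.9 and 19.9 normalized counts in wild-type against 333 and 141 in *Foxq1* cKO samples, the same order of samples as *Tnfsf10*. With a minimum mean of 10 none of these was among the nearest 5, so the list describes 4 samples and depends on the minimum.

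The other genes of TNF superfamily signalling were then compared with limma on log2 values, adjusted over all 12472 genes. The lists held 155 genes, 106 of them listed and tested. At an unadjusted p under 0.05, 3 rose, 3 fell and 100 did not pass, or 5.66% called against 5.22% of all genes. Nothing is read from this share, since the lists were chosen with earlier results of these data known. In the counts per list, a rise or fall is a call at this unadjusted threshold. No gene of the whole table had an adjusted p under 0.05 in limma, the smallest being 0.857, with 651 at an unadjusted p under 0.05. On recovered reads, edgeR gave 0 adjusted and 632 unadjusted calls (4.98%), and DESeq2 gave 59 adjusted (0.465%) and 824 unadjusted calls (6.49%).

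No ligand or receptor outside the set had an unadjusted p under 0.05 in limma with all samples. Of 16 other ligands only *Tnfsf9* was listed, with 90.2 and 20.9 normalized counts in wild-type against 11.98 and 31.5 in *Foxq1* cKO samples. Of 21 other receptors 9 were listed, 0 passed, and their median log2 difference was 0.04. *Cd40*, the receptor of CD40 ligand, had a log2 difference of -0.02 (standard error 0.20). *Ngfr*, the p75 neurotrophin receptor gene, had 562 and 377 normalized counts in wild-type against 1090 and 697 in *Foxq1* cKO samples, or 0.92 on the log2 scale (standard error 0.42; unadjusted p = 0.0698 in limma and 0.0470 in DESeq2). In limma it passed without wild-type 1, and *Tnfrsf25* passed without wild-type 2.

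Among death domain adaptors and caspases, 17 of 18 were listed, 0 rose and 1 fell, and the median log2 difference was 0.01. The gene that fell was *Bid*, whose product carries the caspase-8 signal to mitochondria. It had 536 and 638 normalized counts in wild-type against 280 and 263 in *Foxq1* cKO samples, 46.3% of the wild-type mean, with no overlap. This was a log2 difference of -1.10 (standard error 0.43, unadjusted p = 0.0413, adjusted p = 0.857 in limma). Without wild-type 1, wild-type 2, *Foxq1* cKO 1 or *Foxq1* cKO 2 the p was 0.0572, 0.118, 0.106 or 0.126, so each omission lost the call, and the difference stayed between -1.23 and -0.98. *Casp8*, the initiator caspase of receptors such as FAS, had a log2 difference of 0.01 (standard error 0.19). It was -0.32 (0.22) for *Casp6*, -0.06 (0.27) for *Bax* and -0.19 (0.23) for *Daxx*.

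Of 13 inhibitors of death signalling 12 were listed and 0 passed, with a median log2 difference of -0.00171. *Cflar*, the gene of the caspase-8 inhibitor c-FLIP, had 2602 and 2127 normalized counts in wild-type against 2332 and 2375 in *Foxq1* cKO samples. Its *Foxq1* cKO values lay inside the wild-type pair. The log2 difference was -0.10 (standard error 0.23) for *Bcl2l1* and 0.23 (0.27) for *Xiap*, which encode inhibitors of the mitochondrial step and of caspases.

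In the TRAF and IKK machinery, 20 of 23 genes were listed, 0 rose and 1 fell, with a median of -0.11. *Traf6*, the gene of a ubiquitin ligase that acts in CD40, interleukin-1 and Toll-like receptor signalling, had 1037 and 1156 normalized counts in wild-type against 393 and 753 in *Foxq1* cKO samples. The groups did not overlap, and the log2 difference was -1.01 (standard error 0.41, unadjusted p = 0.0488). Its p in limma was 0.0744 without wild-type 1, 0.119 without wild-type 2 and 0.244 without *Foxq1* cKO 1, where the difference was -0.54. The call was also lost with edgeR, with quantile normalization and without the variance trend. *Ikbkb*, the gene of the kinase that acts on the NF-κB inhibitor, had a log2 difference of -0.18 (standard error 0.32).

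NF-κB subunits and inhibitors gave 1 rise and 0 falls among 10 listed of 12 genes, with a median of -0.13. *Nfkb2*, the subunit processed downstream of LTβR and Fn14, had 342 and 382 normalized counts in wild-type against 854 and 639 in *Foxq1* cKO samples. It rose 2.06-fold, a log2 difference of 1.03 (standard error 0.39, unadjusted p = 0.0393), and kept the call only without wild-type 2 (0.0489), with p-values of 0.0770, 0.217 and 0.0788 without wild-type 1, *Foxq1* cKO 1 and *Foxq1* cKO 2. *Nfkbia*, the inhibitor IκBα and itself an NF-κB target, had 5032 and 4938 in *Foxq1* cKO against 6216 and 6180 in wild-type samples (log2 difference -0.31, standard error 0.15, unadjusted p = 0.0741).

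Of 22 NF-κB target genes 10 were listed, 1 rose and 0 fell, with a median of -0.30. Without regard to the test, 1 was higher and 5 were lower in *Foxq1* cKO samples with no overlap. Of all genes compared, 36.0% had no overlap, 2239 of them higher and 2249 lower. Among the 5 lower targets, *Nfkbia* and *Tnfaip3* also belong to the list of NF-κB subunits and inhibitors. The riser was *Irf1*, a transcription factor gene that is also an interferon target. *Irf1* had 232 and 382 normalized counts in wild-type against 785 and 917 in *Foxq1* cKO samples, 2.77-fold higher, with a log2 difference of 1.51 (standard error 0.43, unadjusted p = 0.0130, adjusted p = 0.857 in limma). Its p was 0.0565 without *Foxq1* cKO 1 and 0.0905 without *Foxq1* cKO 2. The adhesion molecule gene *Icam1* had a log2 difference of -0.20 (standard error 0.24), and *Csf1*, the colony-stimulating factor of macrophages, of -0.81 (standard error 0.34, unadjusted p = 0.0517 in limma and 0.0303 in DESeq2).

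Of 17 p53 target genes, a list that includes known regulators of cell cycle arrest and apoptosis, 15 were listed, 0 rose and 1 fell, with a median of -0.37. No overlap was seen for 6 of the 15, all of them lower in *Foxq1* cKO samples. The share of all genes without overlap in either direction was 36.0%, with 2249 of 12472 lower. *Sesn1*, a stress-induced inhibitor of mTORC1, had 4337 and 5134 normalized counts in wild-type against 2873 and 3143 in *Foxq1* cKO samples, 63.5% of the wild-type mean (log2 difference -0.65, standard error 0.18, unadjusted p = 0.0116). The p was 0.0585 without wild-type 2 and 0.0700 without *Foxq1* cKO 1, and the call was lost without the variance trend. *Cdkn1a*, the gene of the cell cycle inhibitor p21, had a log2 difference of 0.21 (standard error 0.24).

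Interferon-stimulated genes, among which *Tnfsf10* is often counted, had 17 of 20 listed, 2 rises and 0 falls, with a median log2 difference of 0.49. In 9 of the 17 both *Foxq1* cKO samples were above both wild-type samples and in 0 both were below, where 36.0% of all genes had no overlap in either direction, 2239 higher and 2249 lower of 12472. In the remaining lists these counts were 1 higher and 0 lower of 9 other receptors, 2 and 4 of 17 adaptors and caspases, 2 and 2 of 12 inhibitors, 2 and 3 of 20 in the TRAF and IKK machinery and 1 and 3 of 10 NF-κB subunits and inhibitors. Some gaps among the 9 interferon-stimulated genes were narrow. *Psmb9* had 116 in *Foxq1* cKO 1 against 115 in wild-type 1, and *Gbp2* 725 in *Foxq1* cKO 2 against 713 in wild-type 2. Negative log2 differences were found for *Rsad2* (-0.85), *Bst2* (-0.15) and *Stat2*. Nothing is read from these counts, since the lists were chosen with earlier results of these data known. The 2 interferon-stimulated genes that rose were *Irf1* and *Xaf1*, which encodes an XIAP-associated factor. *Xaf1* had 8.43 and 126 normalized counts in wild-type, from 10 and 126 reads, and 469 and 681 in *Foxq1* cKO samples, a log2 difference of 4.03 (standard error 1.26, unadjusted p = 0.0184). It depended on wild-type 1 for its size, being 2.16 without that sample, and its p was 0.0682 without *Foxq1* cKO 1 and 0.101 without *Foxq1* cKO 2. *Stat2*, which transmits type I interferon signals, had a log2 difference of -0.44 (standard error 0.55), *Irf9* of 0.04 (0.43), *Ifi35* of 0.29 (0.26) and *Oasl2* of 0.67 (0.48).

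**Figure D4:**
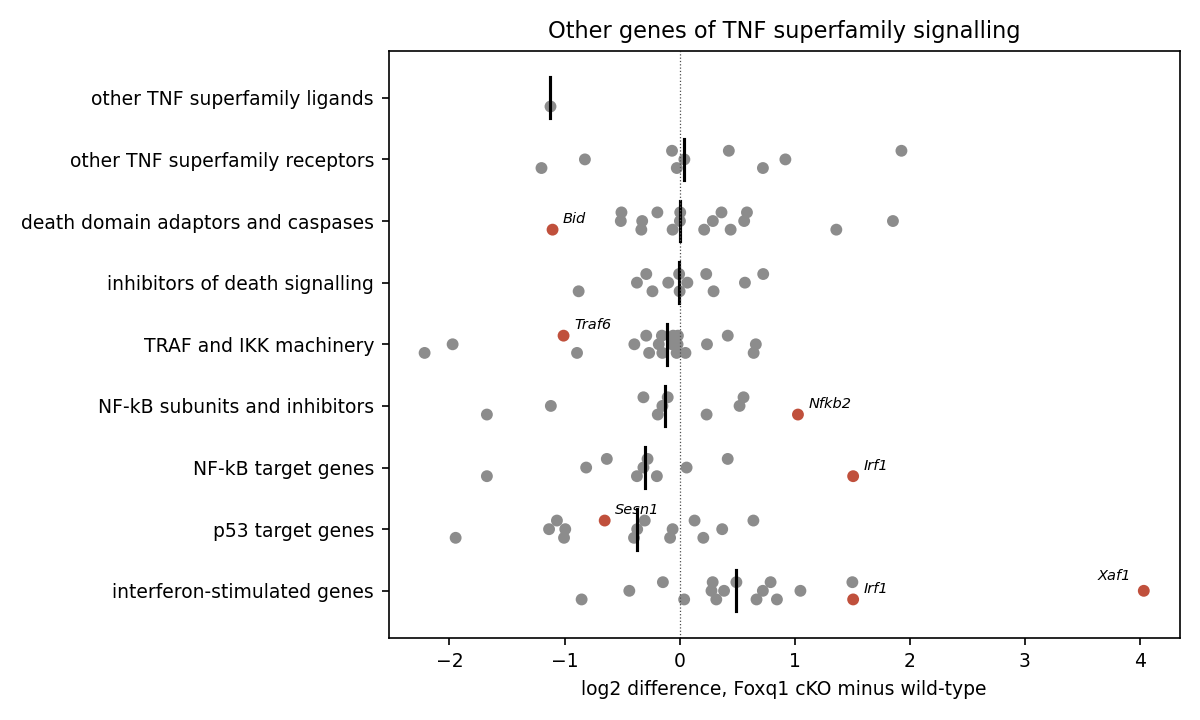
Log2 difference (*Foxq1* cKO minus wild-type) of each tested gene in 9 lists around TNF superfamily signalling; red points have an unadjusted p under 0.05 in limma, grey points do not, and black bars are list medians. The medians run from -1.12 for the single other ligand to 0.49 for interferon-stimulated genes.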

How the data were processed

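RNA was sequenced from 4 samples of CD31-sorted E18 cortex cells. The study names Smart-seq2, a library preparation method, as the basis of this sequencing. The authors deposited 1 table of normalized counts, a signal per gene, in which each gene is repeated on identical lines (1207361 lines, 12693 symbols). Per the labels, Bowtie2 2.2.3, TopHat2 2.0.12, HTSeq 0.6.0 and mm9 were used, and the normalization step and any use of strand in counting are not given in the sources used here. In each sample 100% of values were whole multiples of 1 step (tolerance 0.01 reads), so reads were recovered.

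Repeated lines were collapsed. Genes with a mean of at least 10 were tested with limma 3.58.1 (R 4.3.3, eBayes with a variance trend) after adding 1 and taking log2, without covariates, with Benjamini-Hochberg adjustment over all of them. Adding 1 understates changes of low genes, but differences of mean log2 values also depend on single low samples. For *Fas* the difference was 2.00 in limma against 0.59 in edgeR and DESeq2. In limma, a p-value sets the difference between groups against the spread of samples within groups, moderated by a trend over all genes. Since the number of embryos per sample is not given, this need not be the spread between embryos. No exact permutation test of 1 gene, two-sided, can reach below 0.333 here. Tests on recovered reads with edgeR 4.0.16 and DESeq2 1.42.0 were alternatives. All 3 were tested on simulated data. Members, lists and motifs were chosen with earlier results of these data known. Named genes were the members, *Foxq1*, of each list the genes at an unadjusted p under 0.05 and up to 4 others of highest mean, the 5 nearest to *Tnfsf10*, and the highest and lowest markers. *Tnfrsf22*, *Tnfrsf25*, *Sesn2*, *C1qc*, *Trem2*, *Gfap* and *Flt1* were named after their values were seen. The same holds for *Cdh5*, *Cx3cr1*, *C1qb*, *P2ry12*, *Mrc1*, *Tnfaip3*, *Psmb9*, *Gbp2*, *Rsad2* and *Bst2*. Positions and exon lengths are from GENCODE M21 (GRCm38), which held 12685 of the 12701 identifiers, and no coordinate was converted from mm9. Promoter windows are from RefSeq (GRCm38.p6). Figures were drawn with matplotlib 3.10.9.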

Additional observations from a re-analysis of the deposited data

How the results depend on the processing

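The log2 difference of *Tnfsf10* stayed between 3.29 and 3.37 and that of *Tnfrsf12a* between -1.86 and -1.76 over pseudocounts of 0.1 and 5, quantile normalization, edgeR, DESeq2 and the replicate number as a block. With edgeR and DESeq2 the sign changed for *Tnfrsf1a* (-0.0015 and -0.0027) and *Tnfrsf1b* (-0.376 and -0.373), and *Fas* had 0.59 in both instead of 2.00, since these models compare means of reads. *Tnfrsf10b* had 0.38 in both models instead of 0.76. With each sample left out, values ranged from 2.82 to 3.83 for *Tnfsf10*, from -2.44 to -1.27 for *Tnfrsf12a*, from -0.34 to 1.85 for *Tnfrsf10b*, from -0.36 to 0.45 for *Tnfrsf1a*, from -1.27 to 2.06 for *Tnfrsf1b*, from -0.097 to 0.24 for *Tnfrsf21*, from -0.36 to 4.36 for *Fas* and from -0.107 to -0.009 for *Ltbr*.

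At an unadjusted p under 0.05 there were 651 genes, a count that lay between 592 and 824 over 9 alternatives, but between 276 (without *Foxq1* cKO 1) and 1569 (without wild-type 2) with a sample left out, where the lone sample is assumed to vary like the others. The share of higher genes among these calls was 41.6%, against 49.9% with eBayes without trend. With a sample left out, higher genes were the more frequent calls without either wild-type sample, and lower genes without either *Foxq1* cKO sample. The more frequent direction thus went with the group left with a lone sample, whose spread such a fit cannot estimate. For pathway genes the count was 6, between 5 and 9 over the alternatives and between 1 (without *Foxq1* cKO 1) and 10 (without wild-type 2) with a sample left out. At an adjusted p under 0.05 DESeq2 gave 59 genes and all other fits 0, and the cause was not tested. Of the 5 genes nearest to *Tnfsf10*, 0 remained with a minimum mean of 10, since genes of lower counts then entered. The sources used here do not say whether samples of the same replicate number belong together. The deviations of the first replicates correlated at 0.032 across genes, which cannot settle this with 4 samples. With the block, limma gave 693 genes at an unadjusted p under 0.05. *Bid* (0.0660) and *Nfkb2* (0.0584) were no longer called, and *Csf1* and *Sesn2* were gained. *Traf6* was lost with quantile normalization (0.0555), with edgeR and without the trend, which also lost *Sesn1*. Low counts, such as 7 reads of *Fas* in wild-type 1, limit what these values can show.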
